A study of Mus musculus with 25 samples.

Results

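RNA-seq of mammary organoids was compared between multiparous Brca1/P53-deficient mice given cabergoline and untreated multiparous mice, 60 days after the second weaning. The members were chosen by their labels: 5 cabergoline and 5 untreated libraries, 10 of the 25 in the series, with all genes of the deposited table. The mice carry K14-Cre and floxed alleles of Brca1 and P53, so both groups share the deletion, which occurs only in cells where the K14 promoter has driven the recombinase and in their descendants. Both groups had 2 pregnancies. The cabergoline group received the drug intraperitoneally on the day of the second weaning, at 0.2 mg per kg by the labels (a slightly higher dose is stated in the study's methods), and the untreated group received none. The other libraries come from age-matched nulliparous mice, and from treated and untreated multiparous mice 1 day after weaning, 5 in each group. These mice are also Brca1/P53-deficient by the labels, and their libraries serve here only as reference values. Organoids are the epithelium-enriched fragments that remain after enzymatic digestion of the gland. The labels call the nulliparous mice age-matched but give no age.

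Cabergoline is an agonist of the dopamine D2 receptor. On pituitary lactotrophs it lowers prolactin secretion and so stops milk production. In the mammary epithelium prolactin acts through its receptor and STAT5, which drive the milk protein genes, and its loss at weaning starts involution, in which STAT3 and lysosomal pathways remove the secretory epithelium and adipocytes refill the gland. The comparison asks which differences in gene expression remain long after a single treatment at weaning.

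The 10 libraries differed in cellular makeup within each group. Levels are in TPM, transcript abundances corrected for length and scaled to the same total in every library. Luminal epithelial markers (17 genes, among them the keratins Krt8, Krt18 and Krt19) summed to 103, 5491, 143, 117 and 64.6 TPM in untreated libraries 1 to 5 and to 73.1, 118, 541, 289 and 261 TPM in cabergoline libraries 1 to 5. Untreated library 2 alone was rich in luminal epithelium, and the other 9 held little RNA of the cell type for which the preparation enriches. T and NK cell markers (17 genes) summed to 2541, 66.0, 138, 1128 and 2814 TPM in untreated and 2580, 3031, 354, 1112 and 2532 TPM in cabergoline libraries. Skeletal muscle markers (25 genes) summed to 14568 and 52425 TPM in untreated libraries 3 and 4 and 38643 TPM in cabergoline library 3, against 418 to 5983 TPM in the other 7. Lymphocyte-rich and muscle-rich libraries thus occurred in both groups. In bulk RNA, fewer cells of a type and less RNA per cell cannot be told apart. Correlations of log2 levels across genes had a median of 0.786 over 20 pairs of libraries within a group and 0.799 over 25 pairs between groups, and 3 of 10 libraries were closest to one of their own group. These pairs share libraries and genes are not independent, so the values are a description.

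**Figure D1:**
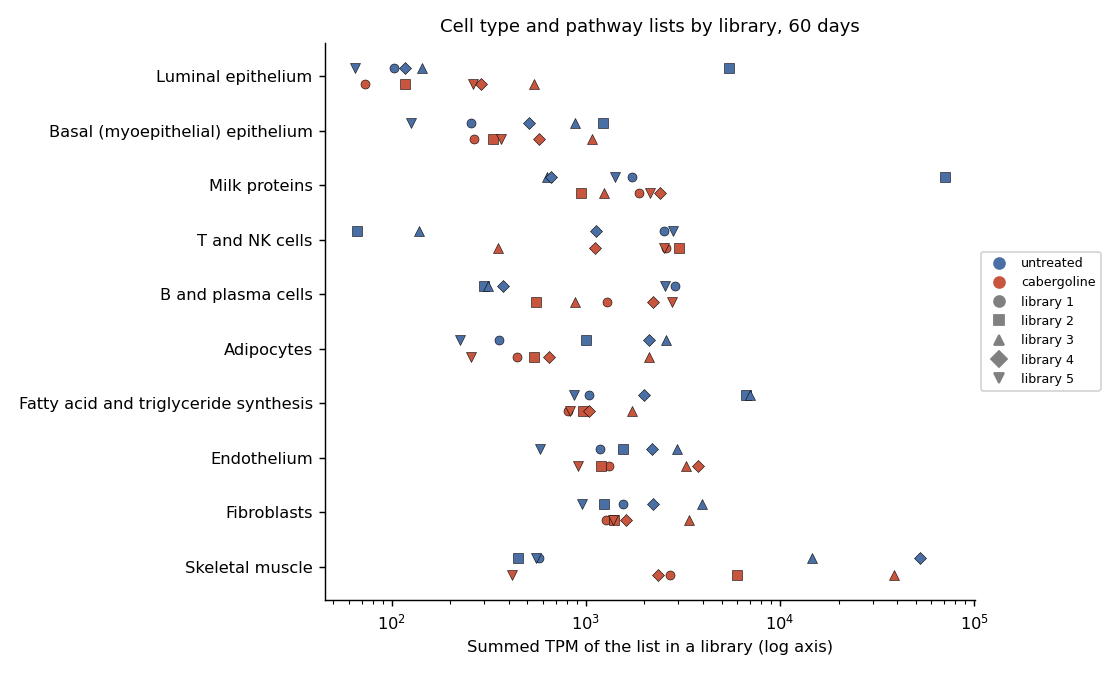
Summed TPM (x axis, log scale) of 10 gene lists in each untreated (blue) and cabergoline (red) library at 60 days, with a symbol shape per library number. The groups overlap in every list, and untreated library 2 stands alone in luminal markers (5491 TPM) and milk proteins (70699 TPM).

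**Figure D2:**
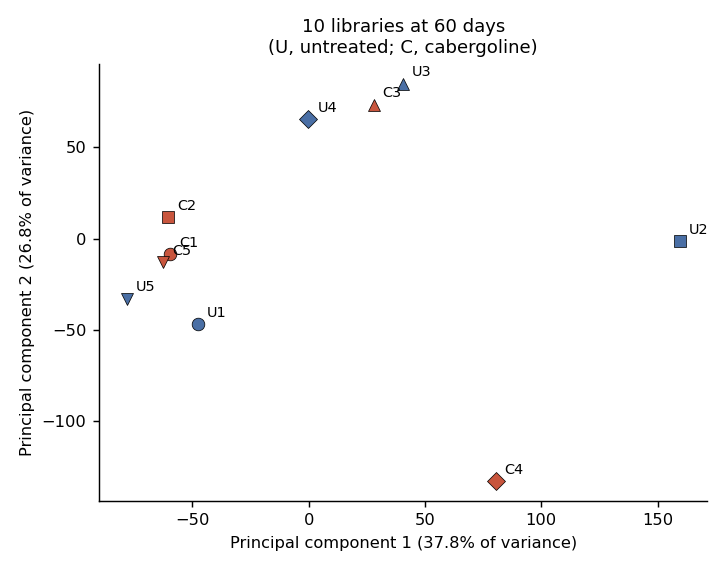
Principal component scores of the 10 libraries (U, untreated; C, cabergoline; number, replicate) on log2(scaled TPM + 1), with 37.8% of the variance on component 1 and 26.8% on component 2. U2 and C4 lie apart, and the other 8 libraries of both groups lie intermixed.

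Untreated library 2 and cabergoline library 4 stood apart. They held 15639 and 14469 genes at 1 TPM or more, compared with 17331 to 18298 in the other 8. Of 13304 genes with a median of at least 5 TPM, 744 were listed at 0 in untreated library 2 and 931 in cabergoline library 4, against 8 to 50 elsewhere, so a 0 there is not evidence of absence. The Xk-related gene Xkrx took 88190 TPM in cabergoline library 4 and 27300 TPM in untreated library 2, against 112 to 3788 TPM in the others. None of 6 library-level measures, among them the number of genes detected and the mitochondrial share, differed between the groups in an exact two-sided permutation test (p from 0.222 to 0.992, adjusted p 0.992 for each; the smallest p the design allows is 0.00794).

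No gene passed the test at 60 days. Among the 17644 genes that reached 1 TPM in 5 or more libraries, limma on log2(scaled TPM + 1) called 0 higher and 0 lower at an adjusted p of 0.05 (0% in each direction), and the smallest adjusted p was 1.00. At an unadjusted p of 0.05 or less there were 100 higher (0.567%) and 107 lower genes (0.606%), together 1.17% of those tested. After scaling, the 5 cabergoline values lay wholly above the 5 untreated values in 26 genes (0.147%) and wholly below them in 22 (0.125%). With no difference between the groups, a fraction of about 0.05 is expected at an unadjusted p of 0.05. The fraction expected without overlap in either direction is then 0.00794, against 0.272% found. Both shares were below these expectations, so a small p or a lack of overlap does not by itself set a gene apart. Genes are correlated, so the shares are a description. The median log2 fold change was -0.02 and the median standard error 0.42. The values that follow describe the genes nearest to a difference and the gene lists, and none is called changed.

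**Figure D3:**
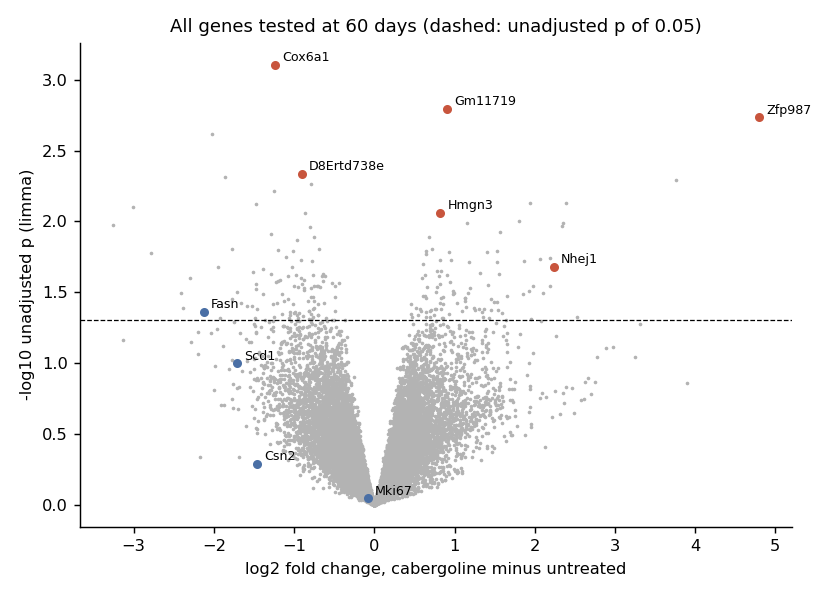
log2 fold change (x axis, cabergoline minus untreated) against -log10 of the unadjusted limma p (y axis) for the 17644 genes tested, with genes named in the text colored and a dashed line at an unadjusted p of 0.05. Cox6a1 had the smallest p (0.000782), and no gene had an adjusted p of 0.05 or less.

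The gene with the smallest p was Cox6a1 (chr5:115345642-115348981, minus strand, GRCm38), which encodes the form outside muscle of a subunit of cytochrome c oxidase, the last enzyme of the respiratory chain. It was at 176, 222, 157, 95.1 and 109 TPM in untreated libraries 1 to 5 and at 76.3, 57.7, 78.4, 47.2 and 73.3 TPM in cabergoline libraries 1 to 5. Every cabergoline library lay below every untreated one (66.6 ± 13.5 against 152 ± 51.3 TPM; SD, n = 5 in each). The log2 fold change was -1.24 with a standard error of 0.27 (unadjusted p 0.000782, adjusted p 1.00 in limma), and it lay between -1.38 and -0.94 under 22 alternative settings. Nulliparous mice spanned both groups, at 28.7, 78.7, 148, 164 and 262 TPM. Of the stretches of 31 bases in Cox6a1 transcripts, 18.45% also occur in AC148174.2, so some reads could be assigned to either gene.

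The promoter of Cox6a1 is shown because nuclear genes of this enzyme are known targets of NRF-1 and of the ETS-family factor NRF-2. It covers 250 bases before to 50 after the RefSeq start (chr5:115348909-115349208, minus strand, GRCm38.p6), 5′ to 3′, with capitals marking matches on either strand to the NRF-1 core (GCGCA, any base, then GCGC), to CCGGAAG (an ETS core) and to CCAAT (the NF-Y box).
Cox6a1 promoter: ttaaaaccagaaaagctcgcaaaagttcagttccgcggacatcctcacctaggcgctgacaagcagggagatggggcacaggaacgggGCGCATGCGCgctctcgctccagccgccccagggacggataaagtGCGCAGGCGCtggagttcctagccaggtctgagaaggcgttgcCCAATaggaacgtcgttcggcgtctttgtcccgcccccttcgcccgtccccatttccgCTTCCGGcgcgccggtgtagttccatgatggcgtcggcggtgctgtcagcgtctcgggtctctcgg
The NRF-1 core matched 162 to 153 and 117 to 108 bases before the start, CCAAT 74 to 70 bases and CCGGAAG 16 to 10 bases before it, and none of these overlap. Of 32851 RefSeq promoters of this length, 4.6% hold the NRF-1 core, 8.86% CCGGAAG and 37.4% CCAAT. A match describes letters and is not a site shown to be used.

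The other nuclear-encoded subunits of the enzyme overlapped between the groups. The list of 14 summarized here includes Cox6a1 itself, was chosen after the values of Cox6a1 had been seen and is only a description. Of its members 12 had a negative and 2 a positive log2 fold change (median -0.44), where 47.9% of all genes tested had a positive and 52.1% a negative one. Cox4i1, the largest of these subunits, was at 341, 703, 405, 631 and 328 TPM in untreated and 328, 338, 461, 307 and 306 TPM in cabergoline libraries. Cox5b was at 17.9 to 53.8 TPM against 0 to 47.8 TPM, with the 0 in cabergoline library 4. The muscle isoform Cox6a2 was highest where muscle markers were, at 153 TPM in untreated library 4 and 107 TPM in cabergoline library 3. In the 10 promoters found for the list, the NRF-1 core occurred in 1, that of Cox6a1. CCGGAAG occurred in 3 and CCAAT in 5, in both cases counting Cox6a1.

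D8Ertd738e (chr8:84246238-84249719) was at 49.8, 73.1, 37.2, 51.4 and 50.3 TPM in untreated and 34.4, 35.4, 35.8, 18.1 and 25.9 TPM in cabergoline libraries. All treated values were lower, by a narrow margin against untreated library 3 as deposited and a wider one after scaling (44.6 against at most 35.4). The log2 fold change was -0.91 (standard error 0.25, unadjusted p 0.00463 in limma). Eno1b, a copy of the glycolytic enolase gene, was at 146, 177, 130.1, 91.5 and 134 TPM against 112, 85.4, 64.4, 71.6 and 88.3 TPM (log2 fold change -0.79, standard error 0.23). Its groups overlapped, and 81.79% of its stretches of 31 bases also occur in Eno1, so these copies cannot be separated with confidence. Eno1 was at 381, 517, 213, 176 and 218 TPM against 194, 183, 157, 187 and 191 TPM, again with overlap.

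The remaining genes of smallest p at the lower end were mostly low, variable or unnamed. Muc2, a gel-forming mucin, was at 0.707 to 8.24 TPM in untreated and 0 to 1.51 TPM in cabergoline libraries. Ahdc1, an AT-hook protein gene, was at 49.2 to 89.5 TPM against 23.3 to 56.7 TPM (log2 fold change -0.86, standard error 0.27). Gm20594, which shares 10.02% of its stretches with the mitochondrial ribosomal RNA mt-Rnr2, was at 23.6 to 193 TPM against 10.5 to 33.5 TPM. The groups overlapped in each of these 3 genes, and in Gm21863 (2.18 to 15.1 TPM against 0 to 2.43 TPM) and ENSMUSG00000116101.1 (18.2 to 214 TPM against 0 to 28.2 TPM). The pseudogene Gm17971 was at 14.3 to 41.7 TPM against 4.45 to 14.4 TPM, without overlap once scaled. Muc2 and Gm21863 passed the filter on low values mainly through the untreated group, where they are high.

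Among further genes whose scaled treated values all lay below the untreated ones, Pex14, needed for import into peroxisomes, was at 33.2 to 70.6 TPM in untreated and 32.6 to 38.9 TPM in cabergoline libraries. Rnf5, a ubiquitin ligase of the endoplasmic reticulum, was at 19.4 to 96.7 TPM against 18.0 to 22.0 TPM. Lipt2, which acts in the lipoylation of mitochondrial enzymes, was at 1.71 to 7.78 TPM against 0 to 1.47 TPM, and the glutathione transferase gene Gstm6 at 1.01 to 8.3 TPM against 0 to 0.865 TPM. In each of these 4 genes untreated library 2 had the highest value. All treated values of Gstm6 were below 1 TPM, so it passed the filter on low values only through the untreated group, where it is high. CAAA01147332.1 was at 659 to 1178 TPM against 379 to 743 TPM.

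At the higher end the pseudogene Gm11719 (chr11:107330708-107331058) had the smallest p. It was at 17.7, 15.7, 14.2, 20.3 and 18.2 TPM in untreated and 29.9, 39.2, 34.5, 44.5 and 30.8 TPM in cabergoline libraries, with a gap between the groups (log2 fold change 0.90, standard error 0.22, unadjusted p 0.00161, adjusted p 1.00 in limma). Hmgn3 (chr9:83109948-83146685), which encodes a protein that binds nucleosomes and loosens chromatin, was at 15.1, 11.9, 12.1, 7.07 and 15.6 TPM against 20.5, 26.9, 18.1, 23.5 and 31.2 TPM. It was higher in all treated libraries (log2 fold change 0.82, standard error 0.26, unadjusted p 0.00867). Nulliparous libraries ran from 9.63 to 32.8 TPM for Gm11719 and from 10.9 to 28.2 TPM for Hmgn3, across much of the range of both groups.

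**Figure D4:**
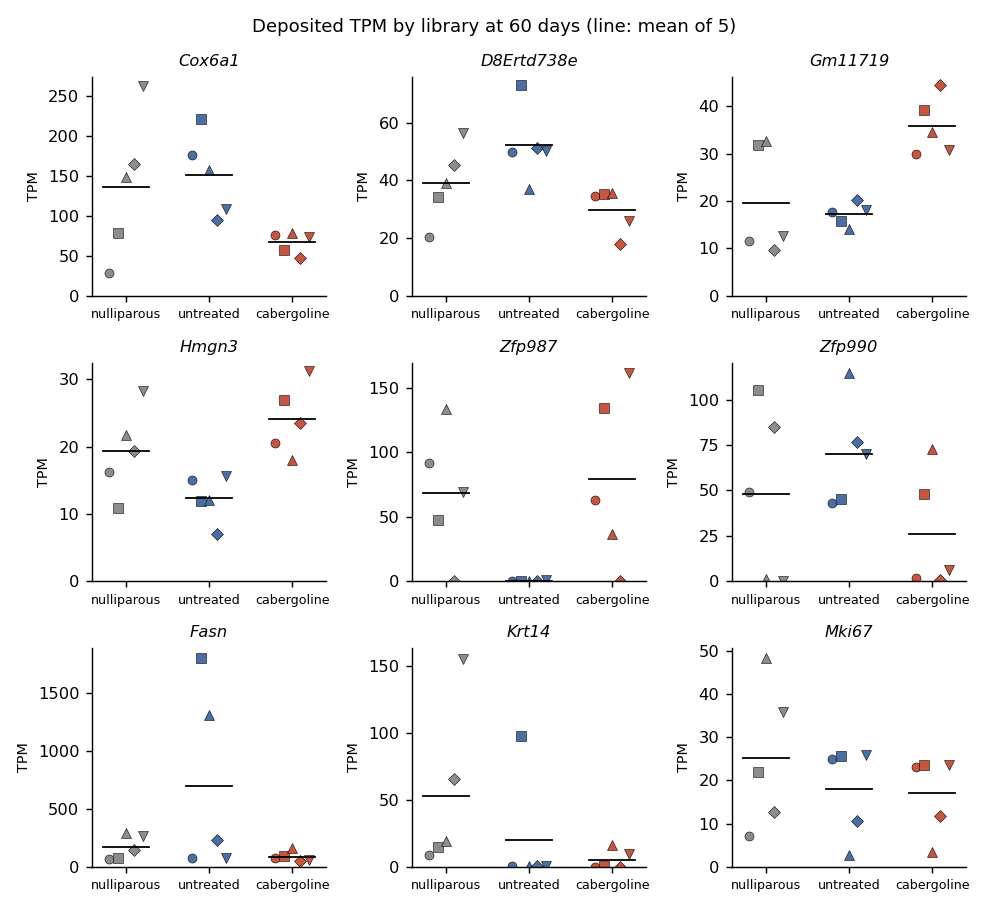
Deposited TPM (y axis) of 9 genes in each of 5 nulliparous, 5 untreated and 5 cabergoline libraries at 60 days, with a line at each mean and a symbol shape per library number. Cox6a1 and D8Ertd738e are lower and Gm11719 and Hmgn3 higher in all cabergoline than in all untreated libraries, while the untreated means of Fasn and Krt14 rest on few libraries (1794 and 97.4 TPM in library 2).

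Nhej1, a factor of DNA end joining, was at 9.55, 7.72, 7.0, 5.89 and 4.1 TPM in untreated and 24.2, 15.7, 31.9, 425 and 13.6 TPM in cabergoline libraries. The groups did not overlap, and cabergoline library 4 lay far above the others (log2 fold change 2.24, standard error 0.83, unadjusted p 0.0208). Also without overlap, Tgds was at 9.3 to 29.3 TPM against 33.7 to 49.3 TPM, and Supv3l1, a helicase of mitochondrial RNA decay, at 19.2 to 25.9 TPM against 29.6 to 39.5 TPM (log2 fold change 0.45, standard error 0.19). Ptpn5, a tyrosine phosphatase best known from brain, overlapped at 0 to 5.48 TPM against 3.09 to 17.3 TPM. The proline-rich protein gene Prpmp5 was at 1.89 to 2.57 TPM against 2.86 to 16.5 TPM. Cabergoline library 4 had the highest value of Prpmp5 and of the pseudogenes Gm11869 (0 to 1.64 TPM against 2.62 to 63.6 TPM), Gm20111 (0 to 7.23 TPM against 8.53 to 26.8 TPM), Gm15481 (0 to 9.51 TPM against 4.3 to 29.0 TPM), Gm27186 (0 to 15.3 TPM against 8.6 to 46.4 TPM) and Gm19129 (0 to 1.03 TPM against 0.983 to 4.74 TPM). Gm11869, Gm15481, Ptpn5 and Gm19129 passed the filter on low values mainly through the treated group, where they are high.

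Zfp987 (chr4:146097298-146126621), a zinc finger gene, was at 0, 0, 0.0504, 0.151 and 1.08 TPM in untreated and 62.7, 134, 36.9, 0 and 162 TPM in cabergoline libraries. In these 10 libraries it was either near 0 or at 36.9 TPM and above, and the groups overlapped through cabergoline library 4 alone (log2 fold change 4.80, standard error 1.17, unadjusted p 0.00184). It passed the filter on low values with exactly 5 libraries, 4 of them treated, so it entered the test mainly through the group where it is high. Without cabergoline library 4 it was called higher in limma (log2 fold change 6.07, adjusted p 0.00249). Libraries of the other groups also varied widely, with the nulliparous ones at 91.9, 47.6, 134, 0.187 and 69.0 TPM, the untreated ones at 1 day at 0.00787, 32.1, 65.0, 0.00763 and 3.59 TPM and the cabergoline ones at 1 day at 0, 20.6, 10.3, 0.105 and 0.545 TPM. Values between these extremes thus occurred at 1 day.

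The level of Zfp987 depends on how reads were divided among near copies, since 93.15% of its stretches of 31 bases occur in other genes. Zfp990 (chr4:145510759-145539188), which holds 31.05% of those stretches, was at 43.4, 45.5, 115, 77.0 and 70.0 TPM in untreated and 1.78, 47.9, 72.6, 0.681 and 6.32 TPM in cabergoline libraries. It was high in all untreated libraries and low in 3 treated ones at 60 days. Nulliparous libraries were at 49.0, 106, 1.11, 85.2 and 0 TPM. At 1 day the untreated libraries were at 4.26, 0.107, 0.682, 2.14 and 0 TPM, and the cabergoline ones at 3.71, 0, 0.0745, 22.0 and 25.9 TPM. Low values of Zfp990 thus also occurred in mice without cabergoline. Summed over Zfp987 and the 6 genes that hold at least 20% of its stretches, untreated libraries had 48.9, 45.5, 121, 79.1 and 78.3 TPM and cabergoline libraries 72.9, 193, 109.7, 0.681 and 182 TPM, with overlap. The pseudogene Gm10108, with 96.54% of its stretches shared, was at 10.8, 81.7, 5.2, 31.5 and 10.7 TPM against 0.00324, 0, 0, 31.2 and 0 TPM, and ENSMUSG00000116415.1 at 0, 0, 0, 29.4 and 0 TPM against 41.2, 43.4, 34.8, 3.29 and 62.6 TPM. The groups overlapped in Gm10108 through cabergoline library 4 and in ENSMUSG00000116415.1 through untreated library 4 and cabergoline library 4. Gm10108 passed the filter on low values mainly through the untreated group and ENSMUSG00000116415.1 mainly through the treated group. In each case this is the group where the gene is high.

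Genes of fatty acid and triglyceride synthesis, which make milk fat in lactating epithelium and storage fat in adipocytes, had the lowest median of the lists. Of 18 tested, 0 had a positive log2 fold change, where 47.9% of all genes did. None was called, 2 (Fasn and Srebf1) were lower at an unadjusted p of 0.05, as were 0.606% of all genes, and the median was -1.02, between -1.52 and -0.43 over the 22 settings. The summed level was 1032, 6648, 7025, 1999 and 868 TPM in untreated and 805, 961, 1732, 1042 and 833 TPM in cabergoline libraries. Untreated libraries 2 and 3 were far above the rest, and library 4 was slightly above the treated range.

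Fasn, the fatty acid synthase gene, was at 76.7, 1794, 1307, 232 and 76.7 TPM in untreated and 72.9, 92.1, 162, 47.8 and 54.4 TPM in cabergoline libraries (log2 fold change -2.13, standard error 0.93, unadjusted p 0.0435). Scd1, the stearoyl-CoA desaturase gene, was at 88.3, 1038, 2190, 339 and 82.8 TPM against 60.8, 104, 331, 144 and 71.7 TPM (log2 fold change -1.71, standard error 0.95). For both genes untreated libraries 2 and 3 carried most of the difference, and an exact two-sided permutation test gave p = 0.0952 for Fasn and 0.167 for Scd1 (both 0.728 after adjustment over 11 genes). Acly, which makes cytosolic acetyl-CoA, was at 699 and 709 TPM in these 2 libraries and 114 to 179 TPM in the other 8. Srebf1, the transcription factor of lipid synthesis, was at 238, 951, 193, 197 and 167 TPM against 157, 146, 155, 134 and 132 TPM. It was the only member without overlap, an arrangement found in 0.125% of all genes, with 4 untreated values just above the treated ones (log2 fold change -1.01, standard error 0.43, unadjusted p 0.0383).

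Markers of cells that express these genes also varied between libraries. Adipocyte markers summed to 356, 1005, 2595, 2126 and 224 TPM in untreated and 442, 542, 2122, 643 and 255 TPM in cabergoline libraries. Lep, the leptin gene, was at 12.3 TPM and Ucp1, the uncoupling protein gene of brown fat, at 117 TPM in untreated library 3, against at most 1.26 and 1.11 TPM elsewhere. Of 16 adipocyte markers tested, 12 had a negative log2 fold change (median -0.56, and -0.02 without untreated library 3), while untreated library 2 was highest in luminal markers. Without untreated library 2 and cabergoline library 4 the lipid list still had 0 of 18 positive (median -0.71), and with luminal, T and NK cell and muscle levels as covariates its median was -0.43. The part of adipocytes in it was not tested. Cholesterol synthesis genes had 7 of 18 positive (median -0.17).

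The promoter of Fasn is shown because Fasn had a lower exact p than Scd1, the only other member of the lipid list tested that way. Srebf1 had no exact test. NF-Y at CCAAT boxes is known to act with SREBP at lipid promoters. It covers chr11:120824498-120824797 (minus strand, GRCm38.p6, RefSeq), 5′ to 3′, with capitals marking CCAAT on either strand.
Fasn promoter: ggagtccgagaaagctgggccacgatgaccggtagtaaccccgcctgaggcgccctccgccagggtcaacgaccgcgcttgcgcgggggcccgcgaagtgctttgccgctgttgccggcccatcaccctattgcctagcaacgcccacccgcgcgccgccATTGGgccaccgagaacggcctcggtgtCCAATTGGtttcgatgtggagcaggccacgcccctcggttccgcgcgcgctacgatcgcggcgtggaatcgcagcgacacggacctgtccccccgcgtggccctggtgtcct
CCAAT matched 90 to 86, 62 to 58 and 59 to 55 bases before the start, of which the last 2 overlap, and the E-box CACGTG was not in this window. Of 18 promoters of 13 genes in the list, 55.6% hold CCAAT, against 37.4% of all, and 2 hold CACGTG, which 7.15% of all promoters hold.

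Epithelial and milk genes were set by untreated library 2. Milk protein genes summed to 1732, 70699, 630.0, 660.4 and 1406 TPM in untreated and 1882, 942, 1234, 2405 and 2150 TPM in cabergoline libraries. The beta-casein gene Csn2 had 10.4, 22202, 1.22, 6.55 and 1.44 TPM against 3.19, 14.5, 14.2, 9.74 and 7.1 TPM, and Wap, the whey acidic protein gene, at 6719 TPM in untreated library 2 and 0 to 6.69 TPM in the other 9. Of 13 milk genes tested 2 had a positive log2 fold change (median -0.71), and 11 of 13 did (median 0.90) without untreated library 2 and cabergoline library 4. Luminal markers likewise went from 5 of 17 (median -0.34) to 15 of 16 (median 0.96), and with untreated library 2 alone left out their median was 0.61. The milk median was 0.66 without untreated library 2, and the luminal median also turned without cabergoline library 1 (0.09).

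Krt14, Serpinb5 and Trim29 are basal epithelial genes named in the study's text. Krt14, a keratin, was at 0.352, 97.4, 0.806, 0.636 and 0.433 TPM in untreated and 0.0904, 0.805, 16.3, 0 and 9.24 TPM in cabergoline libraries. The untreated maximum was far above every treated value, the other 4 untreated values were below 1 TPM, and the gene did not pass the filter. Serpinb5, the maspin gene, was at 0.136, 12.1, 0.314, 0.332 and 0.0394 TPM against 0, 0.292, 2.21, 2.91 and 2.31 TPM, and Trim29 at 0.125, 12.3, 0.0774, 0.388 and 0.0723 TPM against 0, 0.268, 4.62, 1.43 and 0.888 TPM. Both were also highest in untreated library 2, with 3 treated libraries above the other 4 untreated ones. For Krt14 only cabergoline libraries 3 and 5 lay above those 4. Sox2, a stem cell factor, was at 0 to 1.81 TPM against 0 to 0.23 TPM. Like Krt14, the genes Serpinb5, Trim29, Sox2 and Lep did not pass the filter, so none of them was in the limma test. Exact two-sided permutation tests gave p = 0.810 for Krt14, 0.968 for Serpinb5, 0.929 for Trim29, 0.429 for Sox2 and 0.198 for Lep. These tests used all libraries of both groups, with untreated library 2 included, and were not run without it. The study reports Krt14, Serpinb5 and Trim29 as higher after cabergoline, and Sox2 and Lep as lower. A legend there counts fewer untreated mice than the labels list libraries, so the p-values may not refer to the same set of samples. Of 13 basal markers 8 passed the filter, 4 with a positive log2 fold change, and the most abundant, Acta2, Tagln and Myh11, are also smooth muscle genes.

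Genes of the drug's own pathway gave no separation. Drd2, the receptor through which cabergoline lowers prolactin, was listed at 0 in all 10 libraries, as was Drd5, and 5 of 18 dopamine and serotonin genes passed the filter (1 positive, median -0.15). Tph1, the first enzyme of serotonin synthesis, was at 377 TPM in untreated library 2 and 3.62 to 19.4 TPM in the other 9. Prlr, the prolactin receptor, was at 7.85, 321, 11.7, 8.87 and 5.87 TPM in untreated and 6.11, 11.7, 59.9, 16.1 and 32.6 TPM in cabergoline libraries (log2 fold change -0.03, standard error 1.02). Both genes were highest where luminal markers were. Stat5a was at 32.6 to 271 TPM against 46.5 to 68.1 TPM, and hormone receptor and paracrine genes had 4 of 12 positive (median -0.08, and 0.32 without untreated library 2 and cabergoline library 4).

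Lymphocyte lists had the highest medians. All 17 T and NK cell markers had a positive log2 fold change (median 1.08), as did 12 of 14 B and plasma cell markers (median 1.09) and 9 of 9 MHC class II genes (median 0.61), and 0 of these genes reached an unadjusted p of 0.05 in limma. Cd3e, of the T cell receptor complex, was at 546, 1.05, 26.6, 269.8 and 591 TPM in untreated and 609, 849, 117, 147 and 671 TPM in cabergoline libraries (log2 fold change 1.95, standard error 1.43). Untreated libraries 2 and 3 were the lowest, and the other libraries of both groups overlapped. Cd74, the invariant chain of MHC class II, was at 2347, 237, 134, 249.5 and 1622 TPM against 809, 423, 404, 1492 and 1386 TPM. Without untreated library 2 and cabergoline library 4 the 3 medians were 0.37, 0.05 and 0.07.

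Other immune lists had smaller medians. Macrophage markers had 9 of 14 positive (median 0.10), with the lysozyme gene Lyz2 at 159 to 993 TPM against 278 to 1430 TPM. Neutrophil markers had 4 of 6 positive (median 0.31) and sums of 13.2 to 36.6 TPM against 19.5 to 96.7 TPM, where the highest was cabergoline library 4. Without that library the neutrophil median was -0.10. Interferon-response genes had 7 of 19 positive (median -0.10). In TNF and NF-kB signaling 11 of 20 were positive (median 0.08), with Birc3, an inhibitor of cell death, at 120.1 to 688 TPM against 249 to 809 TPM.

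Mki67, which encodes the proliferation antigen Ki-67, was at 24.8, 25.6, 2.72, 10.6 and 25.8 TPM in untreated and 23.2, 23.6, 3.46, 11.8 and 23.5 TPM in cabergoline libraries (log2 fold change -0.08, standard error 0.63). The ranges nearly coincided, though with this standard error a difference of moderate size would not be detectable. Of 28 cell cycle and replication genes 20 had a positive log2 fold change (median 0.33), 1 of them, Tyms, higher at an unadjusted p of 0.05 (0.567% of all genes), and the median was -0.04 without untreated library 3. The sums of the list were 889, 428, 216, 491 and 1087 TPM against 965, 991, 384, 567 and 962 TPM, lowest in the lymphocyte-poor libraries 2 and 3 of the untreated group and 3 of the cabergoline group, and with the 3 composition covariates the median was -0.35. Topoisomerase gene Top2a was at 8.39 to 112 TPM against 27.3 to 126 TPM, and Pcna, the replication clamp, at 33.5 to 125 TPM against 49.8 to 137 TPM.

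Brca1, floxed in both groups, was at 5.7, 15.9, 0.64, 3.21 and 9.79 TPM in untreated and 5.54, 7.43, 2.23, 12.0 and 9.04 TPM in cabergoline libraries (log2 fold change 0.22, standard error 0.61). Trp53, which encodes P53, was at 95.9, 22.9, 27.6, 50.1 and 92.3 TPM against 72.5, 67.3, 33.2, 97.9 and 71.8 TPM (log2 fold change 0.29, standard error 0.42). Neither gene separated the groups. Of 20 BRCA1 complex and homologous recombination genes 13 had a positive log2 fold change (median 0.15), with Atm and Chek2 higher at an unadjusted p of 0.05, as were 0.567% of all genes. Chek2, a kinase of the DNA damage response, was at 59.3, 36.4, 51.1, 32.5 and 68.5 TPM against 78.7, 67.1, 70.9, 105 and 69.9 TPM (log2 fold change 0.58, standard error 0.25, unadjusted p 0.0429). As deposited only untreated library 5 reached the treated range, and after scaling untreated library 3 did too (61.3 against a lowest treated value of 59.6). P53 targets had 11 of 18 positive (median 0.07), with Cdkn1a, the p21 inhibitor, at 52.0 to 121 TPM against 56.8 to 148 TPM.

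Immediate early genes, which respond within minutes to stimuli and tissue handling, had 0 of 21 positive (median -0.62), and 1 of 21 when TPM were not scaled. Fos was at 322, 1615, 578, 323 and 232 TPM in untreated and 318, 91.1, 546, 825 and 185 TPM in cabergoline libraries, with wide overlap. Nr4a3, an orphan nuclear receptor, was at 22.0, 24.2, 15.2, 16.7 and 17.2 TPM against 14.8, 6.79, 14.4, 12.3 and 14.0 TPM, and was the only member without overlap, against 0.125% of all genes in that direction (log2 fold change -0.70, standard error 0.28, unadjusted p 0.0286). The median of the list lay between -0.81 and -0.32 when 1 library was left out, and was -0.06 with the 3 composition covariates.

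Involution and stress genes were often highest in untreated library 2. STAT3 and early involution genes had 3 of 18 positive (median -0.49, and -0.09 without untreated library 2 and cabergoline library 4). Stat3 was at 467, 1186, 278, 316 and 410.4 TPM in untreated and 412, 342, 360.1, 565 and 442 TPM in cabergoline libraries, and Lcn2, an acute-phase gene of involution, at 4098 TPM in untreated library 2 and 1.85 to 83.4 TPM in the other 9. Socs3, which feeds back on STAT3, was at 109, 225, 109, 98.3 and 142 TPM against 149.7, 49.7, 66.2, 99.3 and 71.8 TPM (log2 fold change -0.78, standard error 0.35, unadjusted p 0.0447). As deposited, cabergoline libraries 1 and 4 lay within the untreated range. After scaling, library 4 lay just below it (99.3 against 100.8). Unfolded protein response genes had 5 of 18 positive (median -0.23), with the chaperone gene Hspa5 at 122 to 565 TPM against 142 to 238 TPM and Ddit3 listed at 0 in all 10 libraries. Lysosomal genes had 10 of 25 positive (median -0.06), BCL2 family genes 6 of 15 (median -0.23) and clock genes 4 of 19 (median -0.39).

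Vessel, stroma, nerve and muscle lists overlapped between the groups. Endothelial markers had 12 of 14 positive (median 0.20) and pericyte markers 5 of 8 (median 0.16), but 2 of 14 and 0 of 8 without untreated library 2 and cabergoline library 4. Fibroblast markers had 5 of 14 positive (median -0.09), collagens 2 of 19 (median -0.17) and matrix proteases and inhibitors 0 of 15 (median -0.39). Mmp2, a gelatinase of stromal cells, was at 17.2 to 139 TPM in untreated and 28.7 to 135 TPM in cabergoline libraries. Schwann cell markers had 0 of 10 positive (median -0.44), with their highest sum, 2381 TPM, in untreated library 3, and without that library the median was 0.21. Skeletal muscle markers had 20 of 25 positive (median 0.37, and -0.02 without the 2 libraries named above), and red blood cell genes 1 of 6 (median -0.24). Keratinocyte markers were low, with sums of 7.66 to 51.6 TPM against 9.34 to 19.3 TPM and Krt27 and Krt73 listed at 0 in all 10 libraries, and 2 of the 3 tested were positive (median 0.04).

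**Figure D5:**
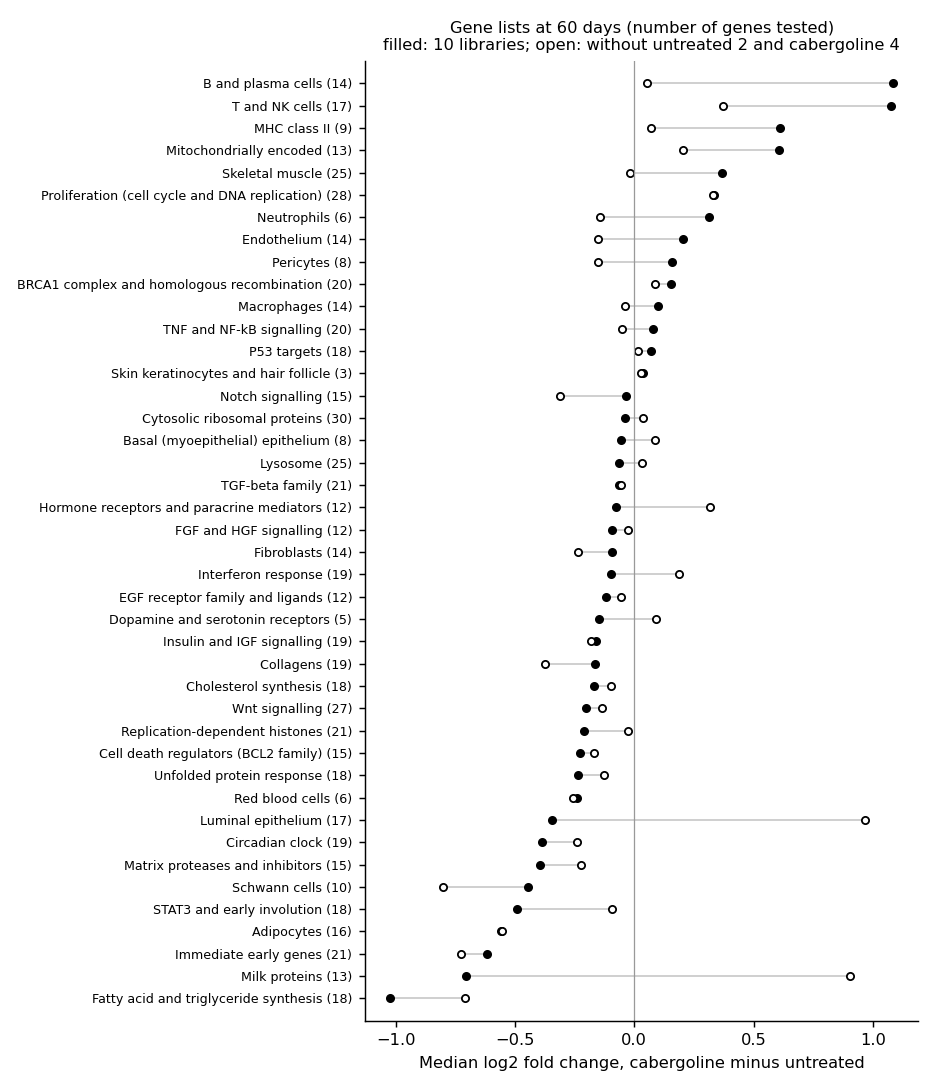
Median log2 fold change (x axis, cabergoline minus untreated) of the genes tested in each of 42 lists, with the number tested in parentheses; filled points use all 10 libraries and open points leave out untreated library 2 and cabergoline library 4. Milk protein (-0.71 to 0.90) and luminal (-0.34 to 0.96) medians cross 0, while that of fatty acid and triglyceride synthesis (-1.02 to -0.71) stays below it.

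Growth factor and signaling lists had medians near 0. Insulin and IGF genes had 3 of 19 positive (median -0.16), with Igf1 at 3.9 to 18.6 TPM in untreated and 7.77 to 29.6 TPM in cabergoline libraries. Wnt genes had 6 of 27 positive (median -0.20), Notch genes 7 of 15 (median -0.04), TGF-beta family genes 7 of 21 (median -0.06), EGF receptor family genes 3 of 12 (median -0.12) and FGF and HGF genes 6 of 12 (median -0.09). Fgfr2, an epithelial FGF receptor, was at 321 TPM in untreated library 2 and 6.71 to 61.8 TPM elsewhere. Mitochondrially encoded genes had 12 of 13 positive (median 0.61), but the median ran from 0.14 without untreated library 5 to 1.23 without untreated library 3 and was -0.55 with library quality weights. Of the others, ribosomal protein genes had 12 of 30 positive (median -0.04) and replication-dependent histones 8 of 21 (median -0.21). Without scaling, the medians of the basal, hormone receptor, interferon, fibroblast, lysosomal, Notch, TGF-beta, FGF and ribosomal lists changed sign. When 1 library was left out, 26 of the 42 medians turned sign in at least 1 case. Those that kept their sign in every case were the adipocyte, lipid, cholesterol, insulin and IGF, T and NK cell, B cell, MHC class II, matrix protease, BRCA1, BCL2, involution, Wnt, mitochondrial, immediate early, clock and unfolded protein lists.

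The effect at 60 days was set against that at 1 day in a fit of 20 libraries with an interaction of treatment and day. Of 18232 genes 0 were called in limma (0%; smallest adjusted p 1.00), and 256 (1.4%) had an unadjusted p of 0.05 or less. At 1 day Cox6a1 was at 62.8 to 87.8 TPM in untreated and 84.6 to 115 TPM in cabergoline libraries (log2 fold change -0.01 after scaling, standard error 0.34). These deposited levels were higher in most treated libraries, and without scaling the log2 fold change at 1 day was 0.38 (standard error 0.21), where the median of all genes was 0.33 without scaling and 0.02 with it. The difference between the days was -1.19 for Cox6a1 (standard error 0.44, unadjusted p 0.0143), 1.13 for Gm11719 (standard error 0.44, unadjusted p 0.019) and -0.92 for D8Ertd738e (standard error 0.35, unadjusted p 0.017). Without scaling these differences were -1.52 for Cox6a1 (standard error 0.35, unadjusted p 0.000368), 0.95 for Gm11719 (standard error 0.69, unadjusted p 0.183) and -1.25 for D8Ertd738e (standard error 0.36, unadjusted p 0.00246), and the median over all genes was -0.19. None of these passed after adjustment in limma, with or without scaling. The named genes were picked for a small p at 60 days, and the interaction uses the same 60-day libraries. Their unadjusted p-values are therefore affected by that choice and are given as values only.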

How the data were processed

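The authors quantified rRNA-depleted, paired-end libraries with Salmon on GRCm38, per the labels and the study's methods, and deposited TPM for 34866 genes in 25 libraries. The annotation release is not given in the sources used here. TPM keep no counts, so depth is unknown, no interval or detection limit is given, and the edgeR test of the authors cannot be run. The labels list 5 untreated libraries, while a figure legend of the study counts fewer mice in that group. Nothing but such legends says that libraries come from separate mice, so p-values measure the spread between libraries. Per-sample columns not used numbered 0.

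Each library was scaled by its own median-of-ratios factor (0.835 to 1.17), and log2(scaled TPM + 1) was tested with limma 3.58.1 (lmFit, eBayes with trend) in R 4.3.3 on genes that reached 1 TPM in 5 or more libraries, with Benjamini-Hochberg adjustment at 0.05. Levels are as deposited and fold changes are after scaling, and the pseudocount understates changes of low genes. Library-level values and 11 genes had exact two-sided permutation tests. Python 3.11.15 with pandas 2.3.3, numpy 2.4.6 and matplotlib 3.10.9 prepared tables, motif counts, shared stretches of transcript sequence (GENCODE, GRCm38) and plots. The fits were tested on simulated data.

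The members and lists were chosen with earlier results of these data known. As no gene was called, named genes are the 10 of smallest p per direction, up to 8 per direction without overlap by widest gap, the genes named in the study's text, Brca1, Trp53, Drd2, Prlr and Mki67, members at 0 in every library, and up to 3 most abundant members of each list. Some of these genes are not reported here. Others (among them Srebf1, Nr4a3, Chek2, Socs3, Zfp990, Eno1, Ucp1, Cidea, Smarcad1, Gm12895, Igf1, Wap, Xkrx, Atm, Tyms and the cytochrome c oxidase list) were named after their values were seen. Alternatives were unscaled TPM, quantile normalization, a pseudocount of 0.1, no filter, at least 5 TPM, no trend, robust estimation, library quality weights, a replicate block, nulliparous libraries in the fit and each library left out. Added after the data were seen were a fit without untreated library 2 and cabergoline library 4 and one with luminal, T and NK cell and muscle list levels as covariates.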

Additional observations from a re-analysis of the deposited data

Results flagged for a closer look

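Of 116 groups of 5 libraries examined, 23 had a library far from the other 4 by Dixon's criterion. Chance gives this in about 1 in 20 independent groups of normally distributed values. Many groups here were genes chosen from these same data, and all share the same libraries, so the count is only a description. Untreated library 2 accounted for 12 of the 23. It was lowest in genes at 1 TPM or more (15639), Gm20111 (0 TPM) and Tgds (9.3 TPM), and highest in luminal markers (5491 TPM), Krt14 (97.4 TPM), Serpinb5 (12.1 TPM), Trim29 (12.3 TPM), Prlr (321 TPM), Pex14 (70.6 TPM), Rnf5 (96.7 TPM), Gstm6 (8.3 TPM) and Gm17971 (41.7 TPM). Cabergoline library 4 was lowest in genes at 1 TPM or more (14469), Zfp987 (0 TPM), Lipt2 (0 TPM) and ENSMUSG00000116415.1 (3.29 TPM), and highest in Nhej1 (425 TPM), Gm11869 (63.6 TPM), Gm10108 (31.2 TPM) and Prpmp5 (16.5 TPM). Fibroblast markers were highest in cabergoline library 3 (3409 TPM), ENSMUSG00000116415.1 in untreated library 4 (29.4 TPM) and Zfp987 in untreated library 5 (1.08 TPM).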

How the results depend on the processing

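With 0 genes called at 60 days, single calls appeared under few alternatives: Zfp987 was called higher (1 gene) with library quality weights, without cabergoline library 4, and without untreated library 2 and cabergoline library 4 together, and Gm10108 lower (1 gene) with quality weights. Against 100 higher and 107 lower genes at an unadjusted p of 0.05, unscaled TPM gave 181 and 46, no filter 158 and 174, the 5 TPM filter 65 higher, quality weights 2513 and 2764, added nulliparous libraries 158 and 172, the 3 covariates 277 and 355, and leaving out both libraries 170 higher. Leaving out 1 library gave 45 to 262 higher and 63 to 259 lower genes, with 262 and 259 without untreated library 5, 64 higher without untreated library 2, 59 and 63 without cabergoline library 2, 172 and 215 without library 3, 177 higher without library 4, and 45 and 67 without library 5. In the interaction, quality weights called 2 genes (Slc25a42 and Gm10221) and put 2595 at that p against 256, unscaled TPM 489 and no filter 466, and leaving out 1 library gave 167 to 561, with 561 without untreated library 5 and 489 without cabergoline library 3, both of 60 days, and 167 without cabergoline library 1 of 1 day. The weights ran from 0.15 to 5.97, lowest in cabergoline library 4 and untreated library 2. The cause of these shifts was not tested.

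Same-numbered libraries deviated together for numbers 1, 3 and 5 (correlations of 0.38, 0.65 and 0.58) but not for 2 and 4 (-0.33 and -0.17), 2 of 5 cabergoline and 3 of 5 untreated libraries correlated best with their own number, and the labels name no pairing, so the libraries were not treated as paired. With the replicate number as a block, 0 genes were called, 133 were higher and 154 lower at an unadjusted p of 0.05, and the interaction had 0 called and 314 at that p. Of the fold changes of named genes under the alternatives, 4147 of 4324 moved by less than their standard error, and 112 of 198 genes changed sign under at least 1 setting. Depth is unknown, so the limits of detection are too.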

Other observations

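Brown fat genes were recorded in few libraries. Ucp1 was at 0, 0, 117, 0 and 0.0646 TPM in untreated and 0, 0.12, 0.267, 0 and 1.11 TPM in cabergoline libraries, and Cidea, a lipid droplet gene of brown and lactating tissue, at 0, 52.9, 59.0, 0.335 and 0 TPM against 0, 0, 0, 0 and 0.105 TPM. Cidea was higher than elsewhere in untreated libraries 2 and 3, and Ucp1 in library 3 alone.

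Smarcad1, which encodes a chromatin remodeler, was at 9138 TPM in cabergoline library 4 and 1897 TPM in untreated library 2, against 64.0 to 416 TPM in the other 8. These are the libraries in which Xkrx was highest. The pseudogene Gm12895, of whose stretches of 31 bases 98.98% occur in Gm12896, took 8479, 1473, 25111, 38311 and 104615 TPM in untreated and 98349, 27621, 10642, 0 and 33611 TPM in cabergoline libraries.

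By transcript length, protein-coding genes in the shortest of 4 classes had a median log2 fold change of -0.09 and those in the longest 0.01.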
